A study of Mus musculus with 2 samples.

Results

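The proteasome genes described here are the 103 probe sets, of 45101 on the array, that are annotated to a single gene symbol made of Psm, a letter from a to g and a number. They stand for 49 genes of the 18193 with such a probe set, and 47 of the 49 were detected. They comprise the alpha ring, the beta ring and the immunoproteasome subunits of the 20S core, the ATPases and other subunits of the 19S cap, activators, an inhibitor and assembly chaperones. The symbol pattern also took in Psmc3ip, a meiotic recombination factor, and Psme3ip1, which binds an activator. Neither encodes a proteasome subunit, so both are kept in the counts over all 49 genes and in no subunit group.

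The cells were 3T3-L1, a mouse preadipocyte line that turns into adipocytes after induction with insulin, dexamethasone and 3-isobutyl-1-methylxanthine (IBMX). One array held RNA of cells given a control siRNA (siGL3, directed at firefly luciferase) and the other RNA of cells given an siRNA against Phf21a, which encodes the histone reader BHC80. Both cultures were grown in medium with 25 mM glucose and 10% FBS, received the adipogenic inducers 24 h after transfection and were harvested 24 h later. The comparison addresses the effect of less Phf21a on gene expression early in adipogenesis. With 1 array of a single cell line per group no value has a replicate error, no test was run, and "higher" or "lower" describes these 2 arrays only.

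Signals are MAS5 values in arbitrary units, and probe sets with at least 1 signal of 51.3 or more (the pooled median) count as detected. A gene is represented by its brightest detected probe set, and its log2 ratio is Phf21a siRNA over control siRNA. The value after ± is a local spread, the central 68% of log2 ratios among the 1000 detected genes nearest in signal, divided by 2. True changes widen it, and it does not measure how cultures vary. A gene was counted as higher or lower at 1.5-fold. Across the 11301 detected genes, 15.2% were higher and 13.9% lower by this measure, 47.8% had a ratio below 0, and the median log2 ratio was 0.03.

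Phf21a itself was 2.51-fold lower, with a signal of 768 under control siRNA and 306 under Phf21a siRNA (log2 ratio -1.33 ± 0.51). Of 10 preadipocyte and early adipocyte markers on the array 9 were detected, with a median log2 ratio of -0.0033. Of these 3 were higher and 1 lower, against 15.2% and 13.9% of all detected genes. Pdgfrb (2092 and 3743, with a second probe set at 0.13), Pparg (512 and 814) and Fabp4 (3502 and 5849) were higher. Dlk1 (12290 and 5940) was lower, and Pdgfra (2208 and 1973) and Cebpb (7761 and 7743) were neither. The late adipocyte hormone gene Adipoq was undetected at 12.5 and 26.5. Median signals were 53.0 and 49.5.

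The proteasome is the cell's main machine for degrading proteins tagged with ubiquitin. Its 20S core is a barrel of stacked alpha and beta rings, in which the beta subunits Psmb5, Psmb6 and Psmb7 carry the peptide-cutting sites. The 19S cap binds ubiquitin chains, removes them, and uses a ring of ATPases to unfold the substrate and feed it into the core. Interferons induce alternative catalytic subunits, Psmb8, Psmb9 and Psmb10, which replace Psmb5, Psmb6 and Psmb7 and change the peptides made for MHC class I presentation. The PA28 activator, built from Psme1 and Psme2, is induced with them. Transcription of the constitutive subunits is set together by NFE2L1, a factor released when proteasome capacity falls short.

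Most constitutive subunits were slightly lower on the Phf21a siRNA array, whereas Psmb10 and Psme1 were higher. Of the 31 detected constitutive subunits of the 20S core and 19S cap, 25 had a log2 ratio below 0, with a median of -0.17, a decrease of 1.13-fold. No constitutive subunit was at least 1.5-fold higher and 2 were lower by that much, Psma7 (-0.64 ± 0.33) and Psmc1 (-0.69 ± 0.40). Psmb8, Psmb9 and Psmb10 had ratios above 0 on the deposited scale, Psmb9 falling below 0 when arrays were scaled to poly-A controls, and Psme1 was 2.06-fold higher. Under that scaling Psmb10 (0.13) and Psme1 (0.34) stayed above 0 but under 1.5-fold. Psmb8 and Psmb9 were at the edge of detection. Over all 47 detected genes, Psmb8, Psmb10 and Psme1 (3) passed 1.5-fold upward and Psma7, Psmc1 and Psmd10 (3) downward. These shares are below the 15.2% and 13.9% of all detected genes. Among the 1926 detected genes in the signal range of the constitutive subunits the shares were 8.05% and 6.75%. Of the 47, 33 were below 0 (70.2% against 47.8%), and their median was -0.15.

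**Figure D1:**
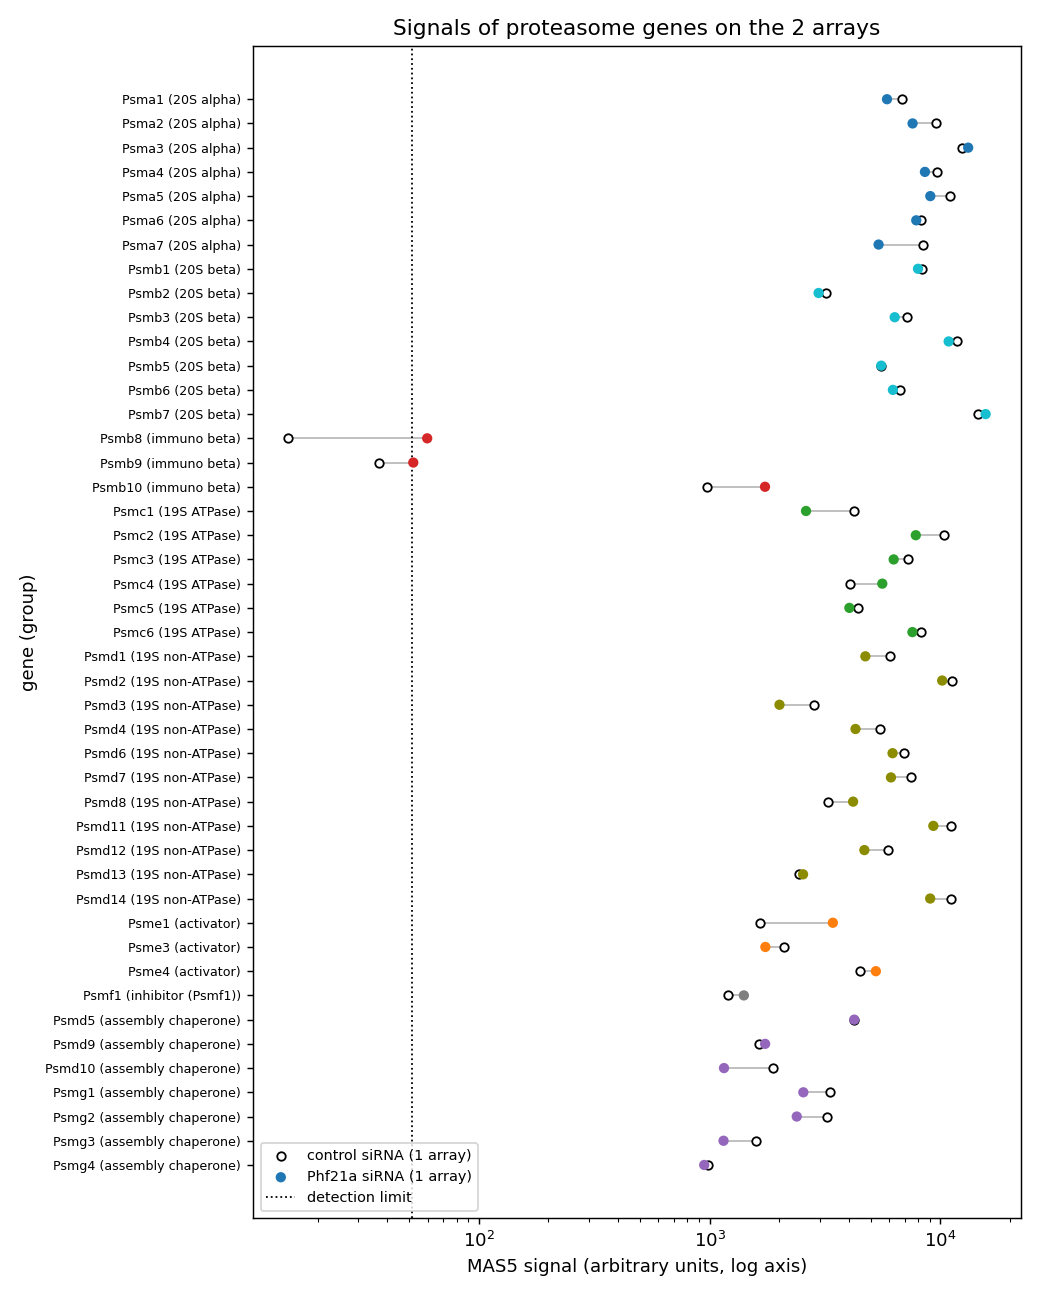
MAS5 signal (log axis, arbitrary units) of each detected proteasome gene on the control siRNA array (open circles) and the Phf21a siRNA array (filled circles, coloured by group), 1 array each, with the detection limit dotted. Most filled circles of the 20S and 19S subunits lie slightly left of the open ones, while Psmb8, Psmb9, Psmb10 and Psme1 lie to the right of theirs.

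Upstream stretches of 4 genes are shown first, because the contrast below is between interferon-inducible genes well above the detection limit (Psmb10 and Psme1) and constitutive catalytic subunits (Psmb5 and Psmb6). Each runs from 120 bases before the RefSeq transcription start to 20 bases from it, in GRCm38.p6, 5′ to 3′ on the strand of the gene. Capitals mark matches on either strand to the interferon-stimulated response element GAAANNGAA (bound by IRF factors) or the antioxidant response element core TGACNNNGC (bound by NFE2L1 and NFE2L2). The stretches are chr8:105938373-105938512 (-) for Psmb10, chr14:55578374-55578513 (+) for Psme1, chr14:54617976-54618115 (-) for Psmb5 and chr11:70525237-70525376 (+) for Psmb6.
Psmb10: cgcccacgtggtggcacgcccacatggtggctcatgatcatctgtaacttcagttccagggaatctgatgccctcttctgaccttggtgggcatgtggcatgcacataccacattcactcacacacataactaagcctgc
Psme1: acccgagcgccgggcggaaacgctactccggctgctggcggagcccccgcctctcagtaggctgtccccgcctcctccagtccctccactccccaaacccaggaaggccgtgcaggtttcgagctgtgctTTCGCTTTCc
Psmb5: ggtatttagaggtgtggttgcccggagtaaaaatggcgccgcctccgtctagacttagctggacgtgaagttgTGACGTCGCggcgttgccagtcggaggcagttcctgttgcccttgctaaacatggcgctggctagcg
Psmb6: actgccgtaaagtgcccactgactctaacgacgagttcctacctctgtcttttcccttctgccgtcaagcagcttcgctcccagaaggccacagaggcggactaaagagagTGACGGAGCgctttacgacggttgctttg

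An interferon-stimulated element match began 10 bases after the start of Psme1. In Psmb8, Psmb9 and Psmb10 that element was not found in the window of 250 bases before to 50 after the start, which says only that these letters are not there. The antioxidant core lay 47 bases before the start of Psmb5 and 9 bases before that of Psmb6. Over the 41 member genes with a promoter in the RefSeq table, 6 held the antioxidant core (14.6%), against 14.0% of all 27025 genes. The interferon-stimulated element was in 7 (17.1% against 9.76%), which besides Psme1 were Psmb3, Psmb4, Psmc2, Psmd4, Psmd9 and Psmg4. The CCAAT box, bound by NF-Y, was in 16 (39.0% against 41.1%), among them 5 of 7 alpha ring genes, and the heat shock element GAANNTTC in 3 (7.32% against 9.04%). Both strands were searched, and 0 pairs of different motifs overlapped. A match is a description of letters, not a binding site.

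The alpha ring closes the ends of the core and docks the cap. Of its 7 detected genes 6 were below 0, with a median of -0.21. Psma7, whose product sits in this ring, had signals of 8412 with control siRNA and 5395 with Phf21a siRNA (log2 ratio -0.64 ± 0.33). Its second probe set read 7251 and 4362 (-0.73), so both probe sets were lower on the Phf21a siRNA array. Psma3 was the one member above 0, with 12446 and 13187 (0.08 ± 0.29). Psma2, Psma5, Psma1, Psma4 and Psma6 had log2 ratios of -0.34, -0.28, -0.21, -0.18 and -0.07. Psma2 was the only one of these 5 outside its local spread (0.32) on the probe sets that stand for them. A second bright probe set of Psma5 read 5947 and 4006 (-0.57).

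The constitutive beta ring was closer to 0 than the other subunit groups. Its 7 genes ran from -0.17 to 0.11 around a median of -0.10, and 0 passed 1.5-fold. The constitutive catalytic subunits all lay within their local spreads. Psmb5, with the chymotrypsin-like site, read 5512 and 5537 (0.01 ± 0.34). Psmb6, with the caspase-like site, read 6705 and 6223 (-0.11 ± 0.33). Psmb7, with the trypsin-like site, read 14555 and 15696 (0.11 ± 0.29). The non-catalytic Psmb1, Psmb2, Psmb3 and Psmb4 lay between -0.17 and -0.06, with Psmb3 lowest at 7131 and 6336.

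Of the immunoproteasome subunits only Psmb10 was detected on both arrays. Psmb10, which takes the place of Psmb7, was well above the detection limit and 1.78-fold higher, with signals of 978 with control siRNA and 1737 with Phf21a siRNA (log2 ratio 0.83 ± 0.46). Its ratio exceeded that of Psmb7 by 0.72 on the log2 scale, or 1.65-fold. That difference is within each array, so it is the same whichever constant scales the arrays. Psmb10 has 1 probe set, so no second probe set bears on it.

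Psmb8, the counterpart of Psmb5, read 14.9 and 59.7 (log2 ratio 2.0 ± 1.26). Only the Phf21a siRNA signal passed the detection limit, and with both signals raised to it the log2 ratio was 0.22. Its other probe set was undetected at 6.99 and 5.01. Psmb9, the counterpart of Psmb6, read 36.9 and 52.0 (0.49 ± 1.09), just past the limit on the Phf21a siRNA array and within its local spread. Both genes entered the list of detected genes through the array on which they were higher, so their direction and the median of the group, 0.83, support nothing beyond the signals themselves. They are also the members nearest to the limit on the detected side, followed by Psmc3ip at 916 and 794. On the other side were the thymus subunit Psmb11 at 3.20 and 1.88 and the testis subunit Psma8 at 0.947 and 1.70.

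Leukocytes express the immunoproteasome at high levels. Most of their markers on the array were undetected, and most of the detected ones were higher with Phf21a siRNA. Of 14 leukocyte markers on the array 6 were detected, with a median log2 ratio of 0.82. Of these 4 passed 1.5-fold upward and 1 downward, against 15.2% and 13.9% of all detected genes. Ratios above 0 were found in 5 of the 6. These were Csf1r (200 and 452), whose 3 detected probe sets ran from 0.18 to 1.18, Cd68 (64.0 and 119), Cd14 (479 and 804), Lyz2 (53.6 and 71.9) and Fcer1g (25.7 and 54.4), the last detected only on the array where it was higher. Laptm5 (66.4 and 22.3) was lower, detected only with control siRNA. With the floor at the detection limit 3 of the 6 passed 1.5-fold upward and 0 downward, with a median of 0.58. Scaled to the poly-A controls 0 passed upward and 1 downward, with a median of 0.12. The summed signal of all 14 was 1017 with control siRNA and 1618 with Phf21a siRNA, and Csf1r and Cd14 gave most of the difference. The defining genes Ptprc (6.87 and 12.2), Tyrobp (4.66 and 6.32), Cd52 (1.61 and 3.87), Coro1a (6.20 and 14.6) and Cd3e (15.1 and 5.24) were undetected on both arrays, as were Adgre1 (36.2 and 23.5), Itgax (41.6 and 13.1) and Itgam (15.8 and 15.3). Both cultures were of the single line 3T3-L1, and no leukocytes are named in the sample descriptions. Which cells gave these signals was not tested. On bulk arrays a different number of cells that express a gene and a different amount of its RNA per cell cannot be told apart.

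Activators cap the core in place of the 19S particle. Psme1, the alpha subunit of PA28, had the highest ratio of the proteasome genes detected on both arrays, with signals of 1659 with control siRNA and 3418 with Phf21a siRNA (log2 ratio 1.04 ± 0.43, 2.06-fold). It has 1 probe set. No probe set was annotated to its partner Psme2 alone, and a probe set shared by Psme2 and Psme2b read 2337 and 2386 (0.03). Psme3, which forms the nuclear PA28 gamma ring, read 2104 and 1743 (-0.27 ± 0.46) on its brightest probe set and 1516 and 973 (-0.64) on the second. The difference between Psme1 and Psme3 was 1.31 on the log2 scale, or 2.49-fold, again within each array.

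Psme4, the large activator PA200, had 3 detected probe sets, which lay between 0.18 and 0.23, with 4489 and 5250 on the brightest. Psmf1, the inhibitor PI31, read 1197 and 1407 (0.23 ± 0.46). Its other detected probe sets gave 0.33, 0.22 and, on the dimmest (70.1 and 65.0), -0.11. Neither gene passed its local spread. Psme3ip1, the binding partner of Psme3, read 2093 and 1895 (-0.14).

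**Figure D2:**
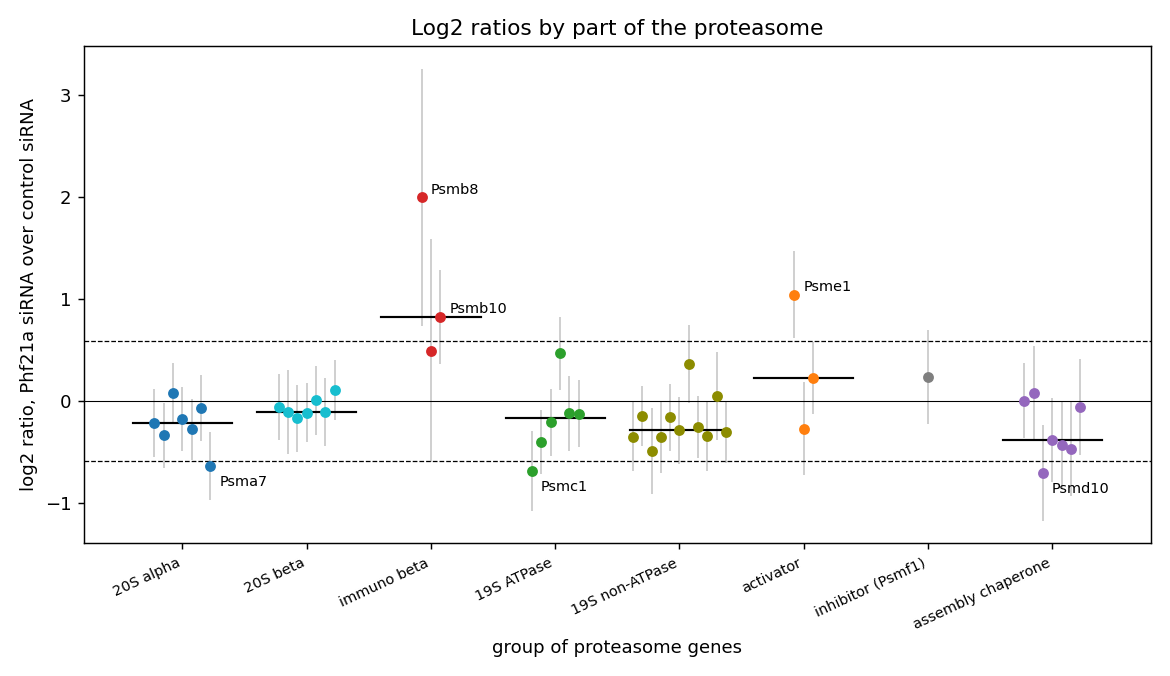
Log2 ratio (Phf21a siRNA over control siRNA, 1 array each) of each detected gene by group, with grey bars for the local spread, a black line for the group median and dashed lines at 1.5-fold. The 20S and 19S groups have medians from -0.29 to -0.10, and only Psmb8, Psmb10, Psme1, Psma7, Psmc1 and Psmd10 lie beyond the dashed lines.

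The 19S cap was lower by a median of -0.26 over 17 genes, with 14 below 0. Among the 6 ATPases, which form the unfolding ring at the base, 5 were below 0. Psmc1 had signals of 4211 with control siRNA and 2615 with Phf21a siRNA (log2 ratio -0.69 ± 0.40, 1.61-fold lower). Psmc2 followed at 10329 and 7820 (-0.40 ± 0.31), with a second probe set at -0.41. Psmc3 and Psmc5 lay within their local spreads at -0.21 and -0.12.

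Psmc4 and Psmc6 depended on the probe set. Psmc4 read 4047 and 5597 (0.47 ± 0.36) on its brightest probe set and 3404 and 2633 (-0.37) on the other, which are of similar brightness and opposite sign. Psmc6 read 8235 and 7561 (-0.12 ± 0.32) on its brightest probe set. Its other probe sets were lower by far more, 1815 and 731 on one (-1.31) and 311 and 136 on the other (-1.19). Psmc6 was named for this gap after its values were seen. Which transcripts these probe sets report was not analysed here.

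The non-ATPase subunits form the lid and the ubiquitin-binding part of the cap. Of 11 genes 9 were below 0, with a median of -0.29, and 0 passed 1.5-fold. Psmd3, a lid scaffold, was lowest, with 2819 and 2007 (-0.49 ± 0.43). Psmd8, another lid subunit, was highest, with 3248 and 4183 (0.37 ± 0.38). Psmd14, the deubiquitinase that removes the ubiquitin chain, read 11118 and 9027 (-0.30 ± 0.30), and the ubiquitin receptor Psmd4 read 5459 and 4285 (-0.35 ± 0.35).

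Psmd1 and Psmd12 lay just outside their local spreads, both at -0.35, with spreads of 0.34. Psmd2, the scaffold paired with Psmd1, was at -0.15, and Psmd6, Psmd7 and Psmd11 were at -0.16, -0.29 and -0.26. Psmd13 was at 0.05 (2449 and 2539), but its 4 probe sets ran from -0.79 to 0.38, and the extremes were the dim ones (112 and 65.0 at the low end, 68.3 and 89.2 at the high end).

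Assembly chaperones guide the rings together and are not part of the finished particle. Of 7 detected, 5 were below 0, and the median was -0.38. Their place among the groups turned on the probe sets used. Without suffixed probe sets the chaperones were at -0.21, above the ATPases (-0.39) and the non-ATPase subunits (-0.32), and with probe sets averaged the alpha ring (-0.40) was below them. Psmd10, the oncoprotein gankyrin that chaperones the ATPase ring, was 1.63-fold lower, with 1881 with control siRNA and 1154 with Phf21a siRNA (-0.71 ± 0.47). The alpha ring chaperones Psmg1 (3325 and 2546), Psmg2 (3211 and 2384) and Psmg3 (1587 and 1148) had ratios of -0.38, -0.43 and -0.47. Their second detected probe sets gave -0.36 for Psmg2 and -0.37 for Psmg3, the latter dim.

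The remaining chaperones were near 0. Psmg4, partner of Psmg3, was at -0.06, and the base chaperones Psmd5 and Psmd9 were at 0.00 and 0.08. A dim second probe set of Psmd9 (88.7 and 59.5) gave -0.57. Of the genes taken in by symbol only, Psmc3ip read 916 and 794 (-0.21) on its brightest probe set and 810 and 828 (0.03) on the other.

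**Figure D3:**
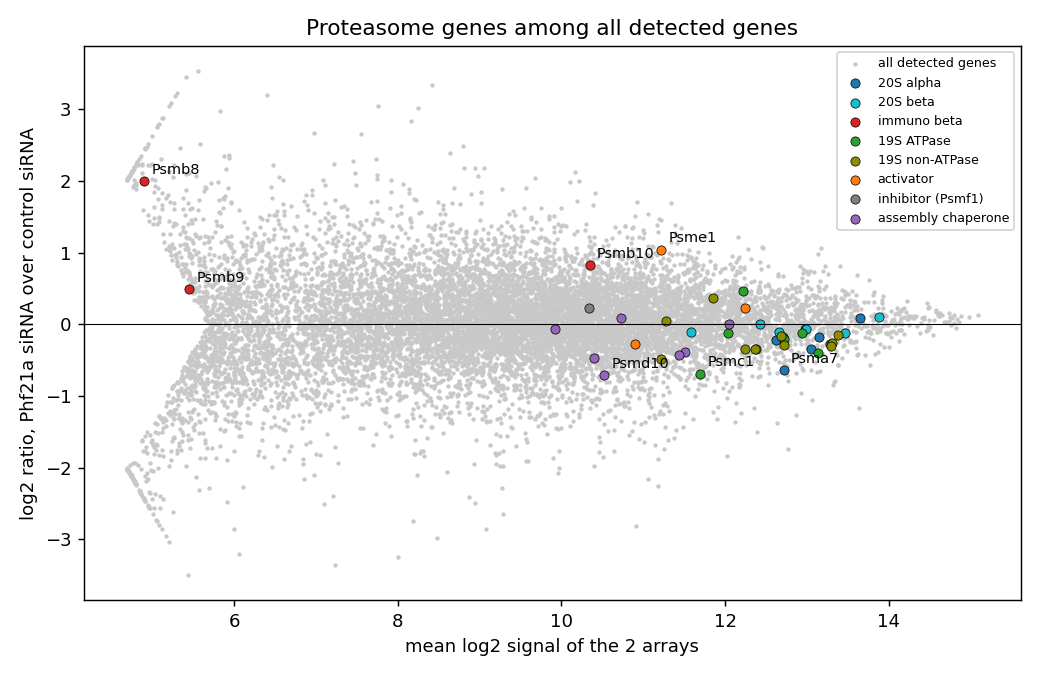
Log2 ratio (Phf21a siRNA over control siRNA) against mean log2 signal for 11301 detected genes (grey) and the detected proteasome genes (coloured by group), 1 array per siRNA. The constitutive subunits sit at high signal in a narrow band slightly below 0, Psme1 and Psmb10 lie above the band, and Psmb8 lies at the dim edge where grey points fan out.

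The constitutive subunits are bright, with mean signals from 2413 (Psmd3) to 15125 (Psmb7), where ratios scatter little. In that signal range lay 1926 detected genes, of which 8.05% passed 1.5-fold upward and 6.75% downward, against 0 and 2 of the 31 subunits. Ratios below 0 made up 46.1% of those genes and 80.6% of the subunits, whose median of -0.17 compares with 0.03. The subunits also differed little among themselves. The central 68% of their ratios, divided by 2, was 0.18, against 0.37 for the 1926 genes. Those genes share the signal range but were not matched to the subunits in signal within it. Subunit genes are not independent replicates, and 23 of the 31 had a ratio smaller than their local spread.

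The 8 subunits past their local spread were Psma2, Psma7, Psmc1, Psmc2, Psmc4, Psmd1, Psmd3 and Psmd12. All but Psmc4 were lower on the Phf21a siRNA array, and the sign of Psmc4 turned on its other probe set.

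Probe sets gave a second reading for 23 of the 47 genes, 16 of which had all detected probe sets on one side of 0 and 7 on both sides. The median gap between the highest and the lowest probe set of a gene was 0.29. The widest gap between probe sets detected on both arrays was in Psmc6, at 1.19. In Psma6 bright probe sets read 8222 and 7856 (-0.07) and 11224 and 11213 (-0.0014), and a dimmer one read 332 and 193 (-0.78). Its dimmest probe set was detected with control siRNA only (52.6 and 18.1). Raising both signals to the detection limit left it at -0.04. Of 84 detected member probe sets 3 passed 1.5-fold upward and 11 downward, against 14.2% and 16.1% of the 21092 detected probe sets of 1 gene. Ratios below 0 were found in 61 of the 84 (72.6%), against 50.4%. Dim probe sets of Psma6, Psmb1 and Psmd13 and both minor ones of Psmc6 are among the 11.

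**Figure D4:**
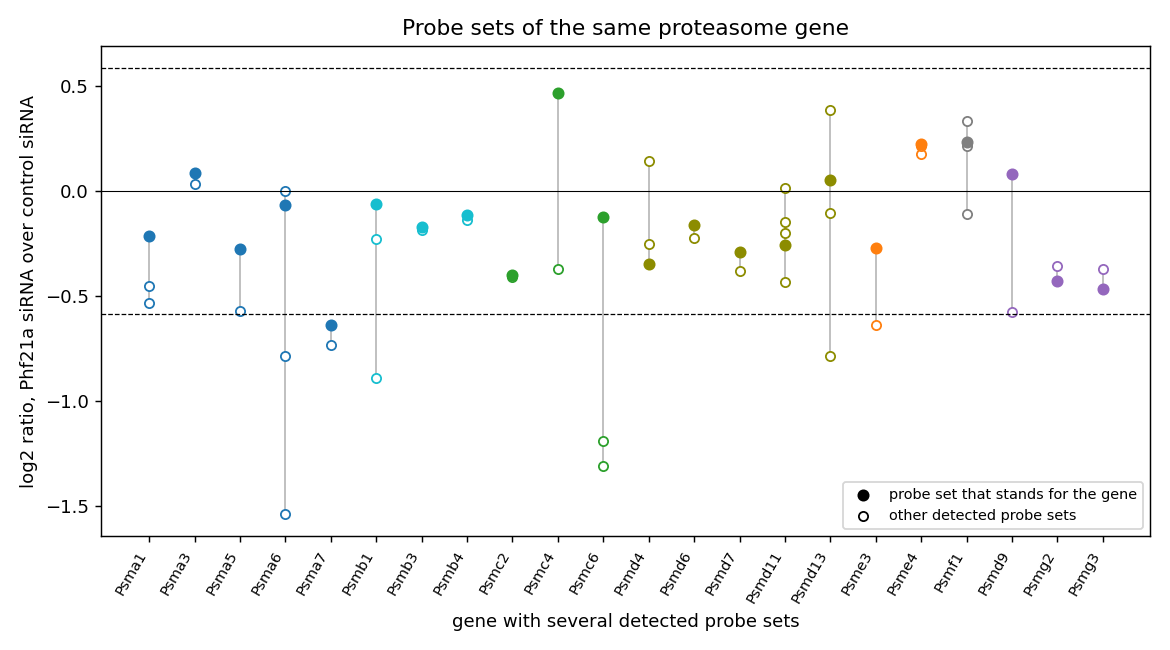
Log2 ratio (Phf21a siRNA over control siRNA) of every detected probe set of the 22 subunit, activator, inhibitor and chaperone genes with several, with the probe set that stands for the gene filled, the others open and dashed lines at 1.5-fold. Psma7, Psmc2, Psmb3 and Psme4 have tight points, while Psma6, Psmc4, Psmc6 and Psmd13 have points far apart.

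The array scale moves all of these ratios together. MAS5 set both arrays to the same trimmed mean, but the poly-A control RNAs read higher on the Phf21a siRNA array by 0.70 on the log2 scale (24 probe sets) and the hybridisation controls by 0.24 (18 probe sets). Scaling to the poly-A controls put the median of all detected genes at -0.67, that of the constitutive subunits at -0.87 and Psme1 at 0.34, with Psmb10 at 0.13. Then 39 of the 47 genes passed 1.5-fold downward and 1 upward, and 3 were above 0 (Psmb8, Psmb10 and Psme1). On the deposited scale 26 of the 31 constitutive subunits were below the median of all detected genes. Both control scalings shift every log2 ratio by the same amount, so they cannot change that count or the order of the groups. Quantile normalization and loess, which do not shift all genes alike, gave 26 and 27.

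**Figure D5:**
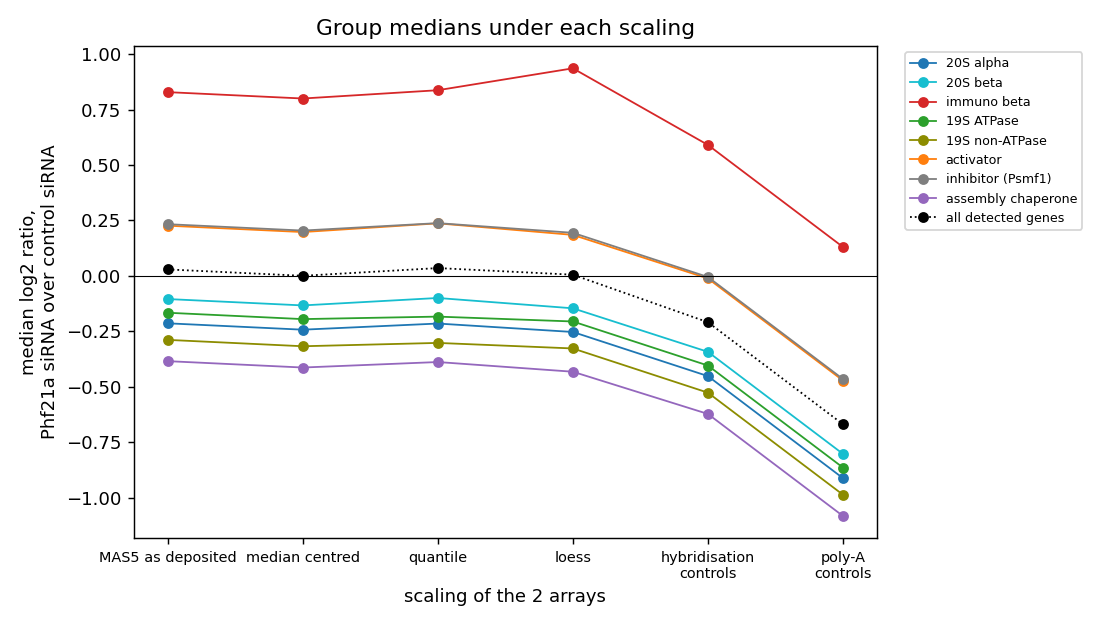
Median log2 ratio (Phf21a siRNA over control siRNA, 1 array each) of each group of proteasome genes and of all detected genes (dotted) under 6 ways of scaling the arrays. All lines drop together under the control scalings, by 0.24 and 0.70 from the deposited scale, and the assembly chaperones lie below the other groups in these 6. The immunoproteasome line is the median of 3 genes, of which Psmb8 and Psmb9 passed detection only on the array where they were higher.

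Genes of other proteins bound to the proteasome had a median of -0.02 and ran from -0.61 to 0.32. Of 8 listed genes on the array, all detected, 0 passed 1.5-fold upward and 1 downward, against 15.2% and 13.9% of all detected genes. That gene was Ube3c, a ubiquitin ligase on the cap (1616 and 1056, -0.61 ± 0.46). Pomp, the chaperone that matures the core, read 8966 and 9012 (0.01), and the cap deubiquitinase Usp14 read 4786 and 4647 (-0.04). The other cap deubiquitinase, Uchl5, read 3051 and 2317 (-0.40), and its second probe set gave -1.98.

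Shuttle receptors and the p97 unfoldase system, which deliver substrates, were mostly lower by small amounts. Of 9 genes 7 were below 0, against 47.8% of all detected genes, with a median of -0.39. In either direction 0 passed 1.5-fold, against 15.2% upward and 13.9% downward of all detected genes. Vcp, the unfoldase p97, read 10840 and 8132 (-0.41 ± 0.31). Its cofactors Ufd1 and Nploc4 were at -0.40 and -0.46, and the shuttle Ubqln2 was at 0.29.

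Among the factors that set proteasome transcription, Nfe2l1 read 1096 and 731 (-0.58 ± 0.49), just short of 1.5-fold. Ngly1, the glycanase that NFE2L1 needs to become active, read 803 and 1533 (0.93 ± 0.46). Nfya, a subunit of NF-Y, read 1181 and 719 (-0.71 ± 0.48), and Nfe2l2 was at 0.37. The 9 listed genes had a median of -0.08. Of them 1 passed 1.5-fold upward (Ngly1) and 1 downward (Nfya), against 15.2% and 13.9% of all detected genes.

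MHC class I presentation takes up the peptides that the proteasome makes. Of 12 listed genes 6 passed 1.5-fold upward and 1 downward, a larger share upward than the 15.2% of all detected genes, and the median was 0.45. Nlrc5, one of the 6, was detected only on the array where it was higher. With both signals required to be detected, 5 of 11 passed upward and the median was 0.21, and with the floor at the detection limit the median was 0.19. Scaled to the poly-A controls the median was -0.25, with 1 gene past 1.5-fold upward and 4 downward, and scaled to the hybridisation controls it was 0.21, with 3 upward and 2 downward. Tapbp, which bridges the peptide transporter and MHC, read 2296 and 4603 (1.00 ± 0.40), and the trimming peptidase Erap1 went from 315 to 633 (1.01 ± 0.54). B2m, the light chain of MHC class I, read 9885 and 15895 (0.69 ± 0.29). The second detected probe sets of Tapbp, Erap1 and B2m gave 0.68, 0.36 and 0.46. Tap1, the neighbour of Psmb9, read 67.0 and 111 (0.73 ± 0.71), whereas Tap2 read 121 and 76.3 (-0.66 ± 0.71). H2-K1 was at 0.16 and H2-D1 at -0.39 on the probe sets that stand for them. The 3 detected probe sets of H2-K1 ran from 0.16 to 0.53. The 4 of H2-D1 ran from -0.39 to 0.23, so its sign turned on the probe set. Nlrc5, an activator of class I genes, read 20.2 and 57.2, the former under the detection limit.

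Among 12 detected interferon signal factors, with a median of 0.05, 2 passed 1.5-fold upward and 0 downward. The shares of all detected genes were 15.2% and 13.9%, so the upward count is near that share. With the floor at the detection limit 1 passed upward. Irf9 read 125 and 261 (1.06 ± 0.62) and Irf7 passed the detection limit on the Phf21a siRNA array only (19.3 and 54.2). Irf1, which drives the immunoproteasome genes, read 908 and 963 (0.08 ± 0.48). The interferon genes Ifng (7.01 and 10.8) and Ifnb1 (35.6 and 17.1) were undetected.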

How the data were processed

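Each siRNA group was 1 array, grouped by the sample descriptions. The authors deposited linear intensity values from MAS5, per the submitters' processing notes. Which MAS5 version was used is not stated there. The trimmed mean, leaving out 2% of probe sets at each end, was 500.0 on both arrays, so the arrays are equal by construction in trimmed mean and cannot show a change in total messenger RNA. Before log2, signals under 12.9 (the pooled 25th percentile) were set to that floor. The brightest detected probe set represented a gene, one ending in _x_at only where a gene had no other. Symbols came from the array's annotation; all 49 matched RefSeq by Entrez number. The number of arrays limits the precision.

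Genes given with both signals were those past 1.5-fold, the immunoproteasome subunits and their counterparts, activators, Psmf1, the highest and lowest of each group, those with discordant probe sets or near the detection limit, and up to 4 changed genes of each other list; others were added after their values were seen. Adrm1, also in that rule, had no probe set annotated to it alone, and 1 other gene of the rule is not reported here. Members and lists were chosen with earlier results of these data known. Local spreads and counts were tested on simulated data. The noise there was drawn from the local spreads of these data. Planted changes were larger than most ratios given here, so small ratios were not examined. Alternatives covered scaling, floor, probe sets, detection, membership and fold. Python 3.11.15, numpy 2.4.6, pandas 2.3.3, statsmodels 0.14.6 and matplotlib 3.10.9 were used.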

Additional observations from a re-analysis of the deposited data

How the results depend on the processing

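The count of genes at least 1.5-fold higher (3) was 1 under poly-A scaling, 1 without Psmc3ip, the immunoproteasome and the tissue-specific subunits, and 6 at the smaller of the other fold limits tried. The count of genes at least 1.5-fold lower (3) was 39 under poly-A scaling, 10 under hybridisation scaling, 5 with probe sets averaged, 12 at that smaller fold limit and 0 at 2-fold. The median over proteasome genes (-0.15) was -0.85 under poly-A scaling. Other alternatives kept both counts within 1.5-fold and the median between -0.39 and -0.14, among them leaving out Psmc3ip and Psme3ip1, which was added after seeing the data. Of 312 values for 29 named genes 31 moved by more than the local spread, most of them under poly-A scaling. Among these 29, 0 of the genes past 1.5-fold changed sign. B2m (0.69) and Pparg (0.67) were not among the 29. Their ratios are smaller than the poly-A shift of 0.70, so they fall below 0 under that scaling. Psmc4 (0.47) was at 0.05 with probe sets averaged and at -0.37 without suffixed probe sets. No paired analysis was possible because each group held 1 array. Psmb8 and Psmb9 lay near the detection limit, where signal over background limits the ratios.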

Other observations

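Stress genes that are often read beside the proteasome were mixed in direction. Of 8 detected heat shock and antioxidant genes 0 were at least 1.5-fold higher or lower, with a median of -0.0025. Of all detected genes 15.2% were higher and 13.9% lower by that measure. The inducible chaperone gene Hspa1b read 3886 with control siRNA and 2655 with Phf21a siRNA (log2 ratio -0.55 ± 0.40), and the antioxidant genes Hmox1 (2622 and 3642, 0.47 ± 0.41) and Nqo1 (2168 and 2743, 0.34 ± 0.42) lay on the other side of 0. Hspa8 and Hsp90aa1, the abundant constitutive and inducible cytosolic chaperones, were at -0.04 and -0.10 on the probe sets that stand for them. Their detected probe sets ran from -0.04 to 0.57 for Hspa8 and from -0.10 to 0.18 for Hsp90aa1.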
